A study of Mus musculus with 6 samples.

Results

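HNRNPA2B1 peaks on the Bin1 and Ehbp1l1 transcripts were described in myoblasts and in differentiated muscle cells. Both genes code for proteins of membrane trafficking. They were chosen by the peaks themselves, as genes where the peak lists of the differentiated cells were rich, so the difference between the states given below is a description and carries no test. Members were all peaks lying wholly within a window on the gene's strand, in the mm9 build of the mouse genome. The Bin1 window lay on chromosome 18, plus strand, 32536000 to 32596000, and the Ehbp1l1 window on chromosome 19, minus strand, 5707000 to 5726500. Of 3895 peaks in all lists, 70 were members, 35 in each window.

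The method was eCLIP, a form of crosslinking and immunoprecipitation: UV light binds proteins to the RNA under them, an antibody pulls down 1 protein, and the RNA that stays with it is sequenced. C2C12 is a mouse muscle cell line that proliferates as myoblasts in rich serum and fuses into multinucleated myotubes in poor serum. Per the labels, myoblasts grew in 20% fetal bovine serum, and differentiated cells were kept for 8 to 10 days in 5% horse serum with ITS supplement, and nuclei were prepared before the pull-down. The study's methods give a shorter differentiation and lysis of whole cells, and the lists do not settle which holds. All cells were otherwise untreated, of this 1 line, and pulled down with the same antibody. The series held 2 immunoprecipitation (IP) libraries of myoblasts (C2C12, replicates A and B), 2 of differentiated C2C12 (also named A and B) and an input sample for each state, which had no list of its own. The myoblast lists held 594 and 591 peaks and the differentiated lists 1499 and 1211, a ratio of mean peak numbers of 2.29. Read depth is unknown, because the lists give no read counts.

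HNRNPA2B1 is a nuclear RNA-binding protein of the hnRNP family, with roles in splicing, transport and stability of RNA. BIN1, also called amphiphysin 2, is a BAR domain protein that binds and bends membranes. In skeletal muscle it shapes the T-tubules, the inward folds of the cell membrane that carry the electrical signal to the contractile apparatus. Its transcript is alternatively spliced in muscle, and mutations of the human gene cause centronuclear myopathy. EHBP1L1 is an adaptor protein that binds the small GTPase Rab8 and works with BIN1 in the sorting of membrane cargo.

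In the GRCm38 annotation, Bin1 (ENSMUSG00000024381) spans 58.5 kb with 13 to 19 exons per transcript of the basic set, and its longest exon has 603 nt. Ehbp1l1 (ENSMUSG00000024937) spans 18.9 kb with 18 to 19 exons, and its longest exon has 2746 nt. The windows were 60000 and 19500 nt long. The gene names are those of the rule that set the windows. That annotation is of another build than the lists, so peaks were not placed in exons, introns or UTRs, and the sequences under the peaks were not analysed here. Positions are therefore given as mm9 coordinates, counted from 1, and as the distance from the 5′ edge of the window in the direction of transcription.

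Peaks on both transcripts lay almost entirely in the differentiated lists. In the Bin1 window C2C12 replicate A held 2 peaks, C2C12 replicate B held 0, differentiated replicate A held 17 and differentiated replicate B held 16. The mean was 1.00 ± 1.41 for myoblasts and 16.5 ± 0.707 for differentiated cells (SD, n = 2 each). In the Ehbp1l1 window the same 4 lists held 1, 0, 18 and 16 peaks, with means of 0.5 ± 0.707 and 17.0 ± 1.41 (SD, n = 2 each). For both genes each differentiated list held more peaks than each C2C12 list. Among all 517 domains, which are sets of peaks of any list on one strand no more than 10 kb apart, 25.9% showed the same order. Since such peaks chose these genes, nothing is read from that comparison.

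As a share of each list, Bin1 peaks made up 1.13% (95% exact binomial interval 0.662 to 1.81) and 1.32% (0.757 to 2.14) of the differentiated lists. They made up 0.337% (0.0408 to 1.21) of C2C12 replicate A, and 0 of 591 peaks (exact interval up to 0.622) in replicate B, where a count of 0 allows a share of up to 0.508% by the limit of 3 peaks. Ehbp1l1 peaks made up 1.20% (0.713 to 1.89) and 1.32% (0.757 to 2.14) of the differentiated lists and 0.168% (0.00426 to 0.934) of C2C12 replicate A. Both limits for Ehbp1l1 in replicate B were the same as for Bin1, at 0 of 591 peaks. The intervals hold for counting error alone and take adjacent peaks as independent. Because peaks of the differentiated lists chose these genes, nothing is read from how the intervals of the states lie to each other. A place without a peak either was not called or fell below the lower limit of the deposited lists, a −log10 p of 5, which does not show that the RNA was unbound. Lower transcript level, lower depth and less binding cannot be told apart in these lists.

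**Figure D1:**
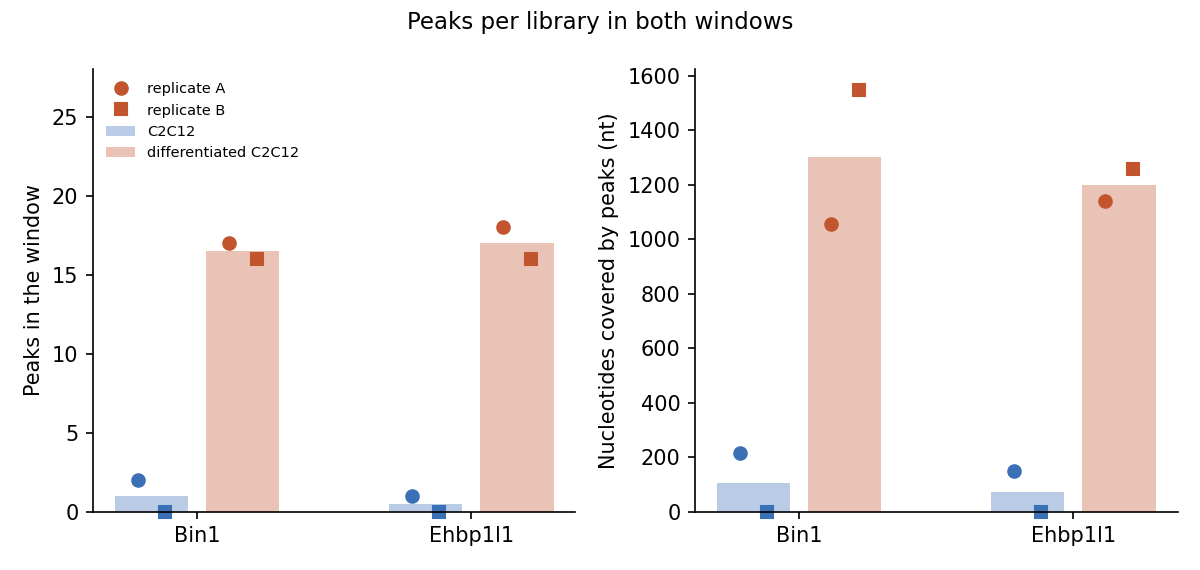
Peaks in each window (left) and nucleotides they cover (right, nt) for Bin1 and Ehbp1l1, with bars for the mean of 2 libraries, circles for replicate A and squares for replicate B. The differentiated lists hold 16 to 18 peaks per window and the C2C12 lists 0 to 2.

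Covered length followed the same order. In myoblasts the Bin1 peaks covered 215 and 0 nt, and in differentiated cells 1058 and 1547 nt (means 108 ± 152 and 1302 ± 346, SD, n = 2 each). The Ehbp1l1 peaks covered 149 and 0 nt in myoblasts, and 1142 and 1258 nt after differentiation (means 74.5 ± 105 and 1200 ± 82.0, SD, n = 2 each). The differentiated Bin1 lists thus had nearly equal peak numbers but differed in covered length, and replicate B had the wider peaks, with a median width of 102 nt against 65 nt. For Ehbp1l1 the median widths were 59.5 and 55.5 nt. The median width over the whole differentiated lists was 19 nt in replicate A and 30 nt in replicate B. On the opposite strand of either window, 0 peaks were listed in any library.

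The peaks were laid out differently along the 2 genes. Linking peaks of the 4 lists across gaps of up to 1 kb gave 8 clusters for Bin1 and 1 for Ehbp1l1. Bin1 peaks spread over 28.9 kb, 48.2% of the window, and covered 6.21% of that stretch. Ehbp1l1 peaks lay within 1996 nt, 10.2% of the window, and covered 72.0% of that stretch. No peak crossed a window edge. The first Bin1 peak lay 29.9 kb from the 5′ edge of the window and the last ended 1.23 kb from the 3′ edge, while the nearest plus-strand peaks outside were 20232 and 4366 kb away. The Ehbp1l1 peaks began 6.69 kb from the 5′ edge and ended 10.8 kb from the 3′ edge. The nearest minus-strand peak upstream of that window was 69.6 kb away.

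**Figure D2:**
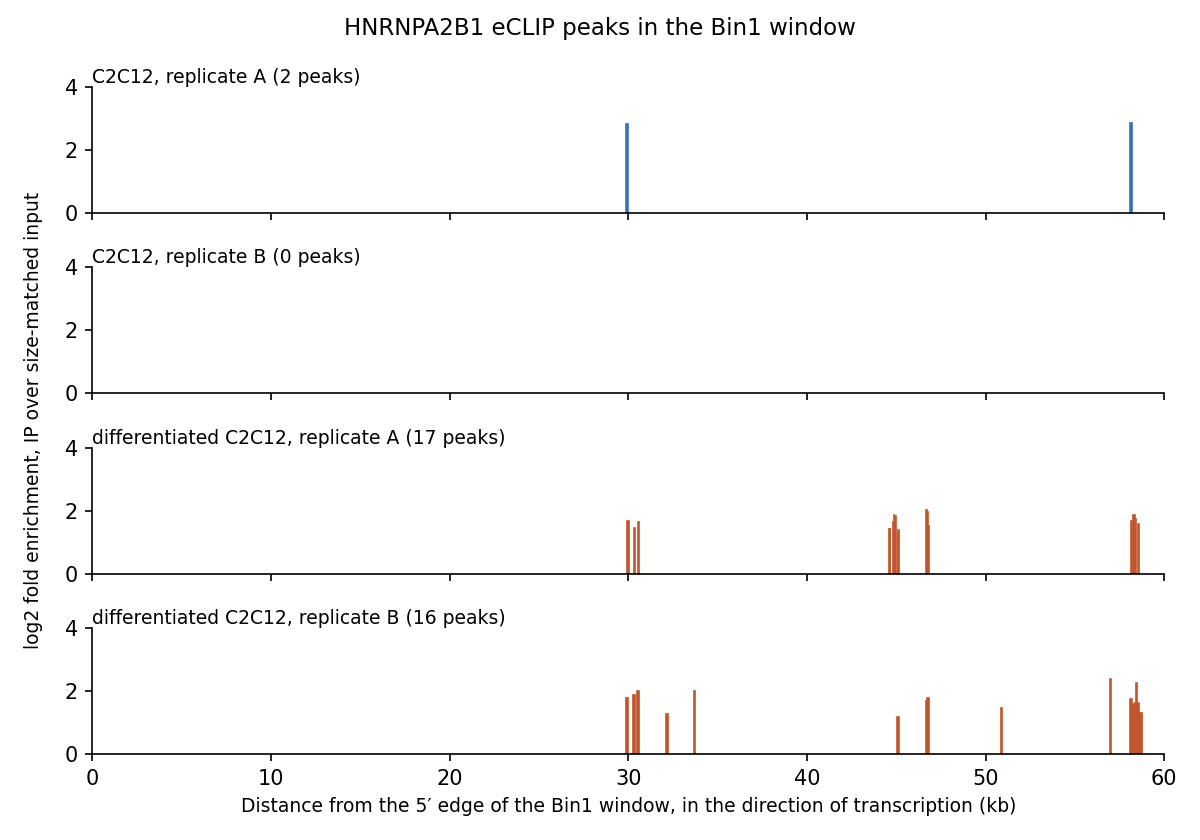
Bin1 peaks of each library, with the distance from the 5′ edge of the window (kb) on the x axis and the log2 fold enrichment of IP over input on the y axis. Both differentiated lists have peaks near 30, 45, 47 and 58 kb, and the 2 peaks of C2C12 replicate A stand at the first and the last of these places.

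Along Bin1, 4 of the 8 clusters held peaks of both differentiated libraries. The most upstream, from 32565869 to 32566625 (29.9 to 30.6 kb into the window), held 3 peaks in each differentiated list and 1 in C2C12 replicate A. The next, from 32580621 to 32581168 (44.6 to 45.2 kb), held 7 peaks in differentiated replicate A and only 1 in replicate B. A compact cluster from 32582651 to 32582842 (46.6 to 46.8 kb) held 3 and 2. The most downstream, from 32594072 to 32594769 (58.1 to 58.8 kb), held 4 and 6, and 1 in C2C12 replicate A. It was the largest of the 8, with 11 peaks, and covered 345 nt in differentiated replicate A and 614 nt in replicate B. The other 4 clusters were single peaks of differentiated replicate B with −log10 p of 5.24 to 5.64, close to the lowest value in the lists.

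Touching or overlapping peaks of the 4 lists were then joined into regions, 14 for Bin1. Both differentiated replicates had a peak in 7 of them. In 5 of these 7 neither C2C12 list had one, which was 35.7% of the Bin1 regions. Over all 1015 regions of the lists, 19.8% showed that pattern. Differentiated peaks chose the gene, and its peaks were wider by median than those of the lists, so nothing is read from these comparisons. Values for these regions are given for differentiated replicates A and B in turn, as the −log10 p against input and the log2 fold enrichment of the region's top-scoring peak. The region from 32565869 to 32566012 had −log10 p of 6.71 and 8.67, with log2 fold enrichments of 1.67 and 1.79. The region from 32566282 to 32566385 had 5.57 and 9.72, with enrichments of 1.44 and 1.88. The region from 32566489 to 32566625 had 5.80 and 10.1, with enrichments of 1.63 and 2.01. These 3 neighbours were all higher in replicate B on both measures.

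Further downstream the order of the replicates changed. The region from 32581064 to 32581168 had −log10 p of 7.49 and 5.31, with log2 fold enrichments of 1.39 and 1.19. The region from 32582651 to 32582842 had 10.3 and 9.09, with enrichments of 2.02 and 1.78. By their top-scoring peaks both were higher in replicate A on both measures. In the second region these were peaks at different places. Peaks that overlapped each other best there had −log10 p of 10.3 and 7.08 upstream and 5.64 and 9.09 downstream. At the downstream end, the region from 32594072 to 32594178 had 7.13 and 7.52, with enrichments of 1.68 and 1.74. The widest region, 534 nt from 32594236 to 32594769, had 12.0 and 9.89, with enrichments of 1.74 and 1.30, from 3 and 5 peaks. The value of 12.0 was the highest −log10 p of any Bin1 peak. The top-scoring peak of replicate B lay further downstream, and the replicate B peak that best overlapped the 12.0 had 9.46, with an enrichment of 1.63. The 7 regions seen in 1 differentiated replicate had top values of 5.23 to 7.48, whereas the better replicate of the 7 shared regions reached 7.49 to 12.0. Taking the better replicate raises the second range by construction, so nothing is read from this split.

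Ehbp1l1 peaks formed a dense row. The 11 regions of its single cluster, from 5717812 to 5719807, were separated by gaps of 19 to 121 nt with a median of 48.5 nt. The gaps between the Bin1 regions had a median of 1048 nt and reached 10.9 kb. Both differentiated replicates had a peak in 10 of the 11 Ehbp1l1 regions (90.9%), beside the 29.2% over all regions. In 9 of these 10 neither C2C12 list had one, 81.8% of the Ehbp1l1 regions beside the 19.8% over all regions. Ehbp1l1 peaks were closely set and, by median, wider than those of the whole lists, which favours shared regions. Differentiated peaks also chose the gene, so nothing is read from either comparison. The region seen in 1 differentiated replicate was also the most downstream, from 5717812 to 5717844, with a −log10 p of 5.63 in replicate B.

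**Figure D3:**
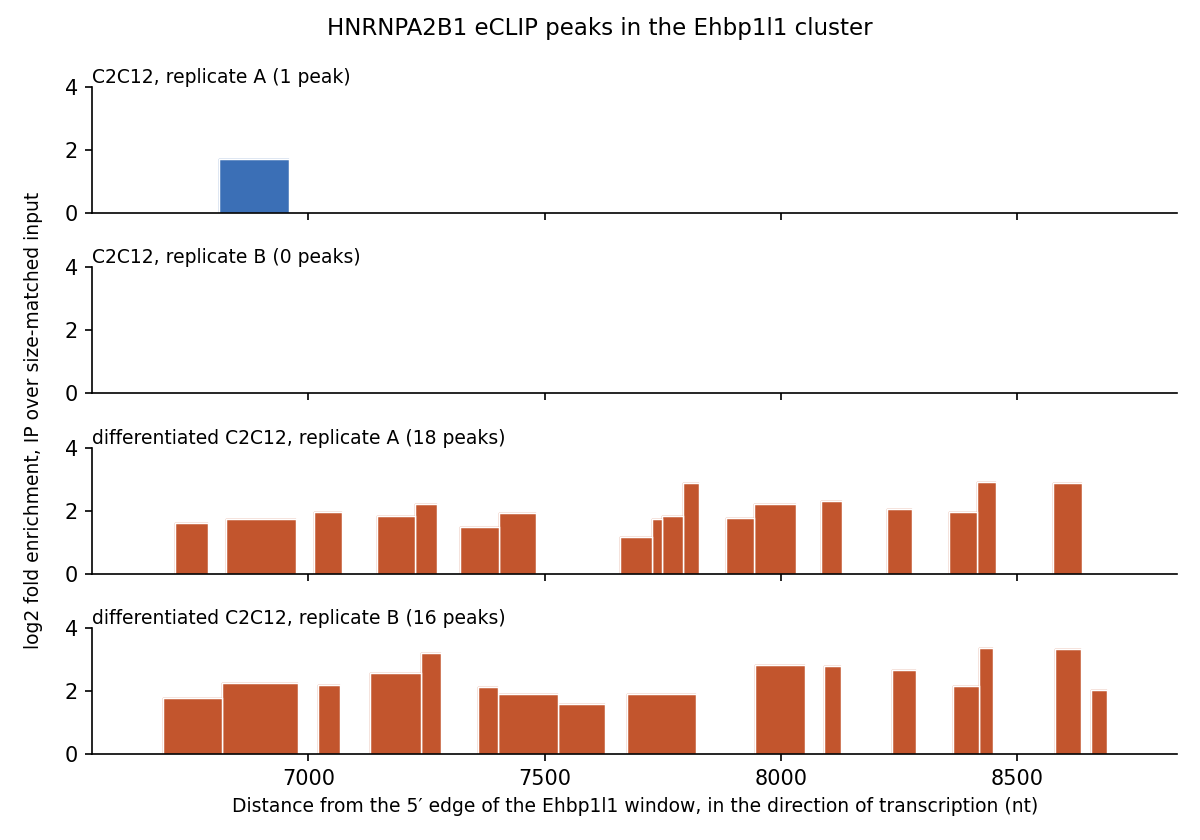
Ehbp1l1 peaks of each library, with the distance from the 5′ edge of the window (nt) on the x axis and the log2 fold enrichment of IP over input on the y axis; white lines part touching peaks. The differentiated lists share 10 of the 11 regions of the row, and the single peak of C2C12 replicate A stands near its 5′ end.

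The Ehbp1l1 regions are given from 5′ to 3′, again with the values of differentiated replicates A and B in turn. The most upstream, from 5719522 to 5719807, had −log10 p of 13.1 and 23.5, with enrichments of 1.75 and 2.26 on the log2 scale. The region from 5719430 to 5719489 had 5.72 and 6.90, with enrichments of 1.97 and 2.21. The region from 5719221 to 5719370 had 10.7 and 24.3, with enrichments of 1.82 and 2.57. The value of 24.3 was the highest −log10 p of either gene, and it ranked 535 among the 1211 peaks of its list.

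In the middle of the row, the region from 5718874 to 5719179 had −log10 p of 10.5 and 15.6, with log2 fold enrichments of 1.93 and 1.91. The region from 5718674 to 5718841 had 9.85 and 18.8, with enrichments of 1.75 and 1.91. It was split into 4 peaks in replicate A and was 1 peak in replicate B. The region from 5718450 to 5718617 had 10.5 and 17.3, with enrichments of 2.22 and 2.84. These 3 regions had the higher −log10 p in replicate B, as the upstream ones did.

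Towards the 3′ end, the region from 5718372 to 5718415 had −log10 p of 5.08 and 7.59, with log2 fold enrichments of 2.32 and 2.81. The region from 5718216 to 5718276 had 5.41 and 9.53, with enrichments of 2.07 and 2.69. The region from 5718047 to 5718145 had 8.26 and 9.08, with enrichments of 1.95 and 2.16. The region from 5717864 to 5717925 had 8.56 and 12.3, with enrichments of 2.88 and 3.35. On either side of the cluster's midpoint, the medians of both measures differed in opposite ways. In replicate A the median enrichment, on the log2 scale, was 1.82 over the 7 peaks upstream of the cluster's midpoint and 2.07 over the 11 peaks downstream of it, while the median −log10 p was 9.46 and 7.67. In replicate B the enrichments were 2.18 and 2.75 over 8 peaks each, and the −log10 p were 13.0 and 9.31. The ranges on either side of the midpoint overlapped in both lists for both measures.

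Enrichment over input was moderate on both transcripts. Bin1 peaks had log2 fold enrichments of 1.32 to 2.02 in differentiated replicate A, a 2.50- to 4.05-fold excess over input, and of 1.19 to 2.38 in replicate B (2.28- to 5.22-fold). Their medians, 1.63 and 1.72, were below the medians of the whole lists, 1.87 and 2.16. Ehbp1l1 peaks had 1.16 to 2.92 in replicate A (2.23- to 7.55-fold) and 1.58 to 3.37 in replicate B (2.99- to 10.3-fold). Their medians were 1.94 and 2.24, slightly above those of the lists. The median −log10 p was 6.71 and 7.97 for Bin1 and 7.96 and 10.0 for Ehbp1l1, below the 14.9 and 14.6 of the whole lists for both genes. A −log10 p of at least 8 was reached by 4 of 17 and 8 of 16 Bin1 peaks and by 9 of 18 and 12 of 16 Ehbp1l1 peaks. Over the whole lists 64.0% and 64.5% of peaks reached it. A −log10 p of 8 is also the cut for significance in the study's methods, there after Bonferroni correction, and the files do not say if their p was corrected. In either case, 13 and 8 of the Bin1 peaks, 9 and 4 of the Ehbp1l1 peaks and all 3 myoblast peaks lie under that cut. Correction can only lower a −log10 p, so more peaks may lie under it if the deposited p is uncorrected.

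Replicate agreement in differentiated C2C12 was counted as peaks that shared 1 nt or more with a peak of the other list. For Ehbp1l1, 17 of 18 peaks of replicate A (94.4%, 95% exact interval 72.7 to 99.9) and 14 of 16 of replicate B (87.5%, 61.7 to 98.4) had a partner. For Bin1 a partner was found for 12 of 17 (70.6%, 44.0 to 89.7) and 10 of 16 (62.5%, 35.4 to 84.8). Over the whole lists the shares were 72.0% and 67.0%. Peaks of the whole lists were narrower than those of both windows, with median widths of 19 and 30 nt. The 1 nt rule favours wide and closely set peaks, so these shares are not on equal terms. The intervals take adjacent peaks of 1 transcript as independent and do not measure the spread between replicates. Those of both genes overlapped, and the difference between the genes was not tested. Shared nucleotides were 963 for Ehbp1l1, which is 84.3% of the length covered in replicate A and 76.6% of that in replicate B. For Bin1 they were 824, or 77.9% and 53.3%.

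Peaks that were each other's best overlap were matched, giving 14 pairs for Ehbp1l1 and 10 for Bin1. The log2 fold enrichment of Ehbp1l1 was higher in replicate B in 13 of 14 pairs, with a median difference of 0.50 (range -0.02 to 1.00). The −log10 p was higher in replicate B in all 14. For Bin1 the enrichment was higher in replicate B in 6 of 10 pairs, with a median difference of 0.04 (-0.32 to 0.44), and the −log10 p in 5 of 10. Over all 735 matched peaks the median difference in enrichment was 0.23, with replicate B higher in 533. The −log10 p, by contrast, was higher in replicate B in only 223 of these 735. Matched peaks of 1 transcript share their libraries, so these pairs are not independent. The labels list 1 input sample per state and the study's methods an input for each replicate. Under the first the replicates share their input, and under the second a difference in enrichment between them can also lie in the inputs; which applies is unknown.

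**Figure D4:**
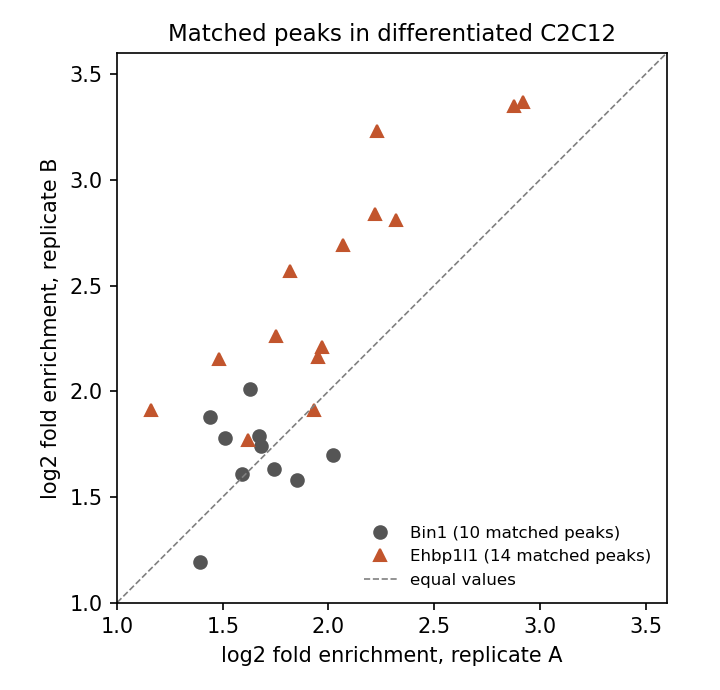
Log2 fold enrichment of matched peaks in differentiated C2C12, replicate A on the x axis and replicate B on the y axis, for Bin1 (circles) and Ehbp1l1 (triangles); the dashed line marks equal values. In 13 of 14 pairs Ehbp1l1 lies above the line, whereas Bin1 lies on both sides of it.

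The 3 myoblast peaks stood at places that were also peaks in both differentiated lists. Of all 1015 regions of the lists, 201 and 539 had no C2C12 peak, with differentiated peaks in both replicates or in 1. Peaks in both differentiated replicates were seen in 296 regions, of which 18 (1.77% of all) also had a peak in 1 C2C12 list only. C2C12 peaks alone were seen in 135 (13.3% of all). These percentages include regions without a C2C12 peak, so they are not shares of the myoblast sites. The first Bin1 peak of C2C12 replicate A, from 32565885 to 32565992, had a log2 fold enrichment of 2.81 and a −log10 p of 5.15. The differentiated peaks over it had enrichments of 1.67 and 1.79, with −log10 p of 6.71 and 8.67. The second, from 32594072 to 32594178, had an enrichment of 2.84 and a −log10 p of 5.31. The differentiated peaks over it had 1.68 and 1.74, with −log10 p of 7.13 and 7.52. At both Bin1 places the myoblast peak therefore had the higher enrichment and the lower −log10 p. The scores of the states rest on different input samples, and their difference was not tested.

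The Ehbp1l1 peak of C2C12 replicate A, from 5719541 to 5719689, had a log2 fold enrichment of 1.70 and a −log10 p of 5.43. The differentiated peaks that overlapped most of it had enrichments of 1.75 and 2.26, with −log10 p of 13.1 and 23.5. Here the myoblast value was the lowest on both measures. All 3 myoblast peaks were near the lower limit of the lists: 55 of the 594 peaks of C2C12 replicate A (9.26%) had a −log10 p at or below the 5.43 of the highest of them. No myoblast peak of either gene was seen in both replicates, while 173 of all 1015 regions (17.0%) had a peak in both C2C12 replicates. That percentage includes the regions without any C2C12 peak, so the share among myoblast sites is higher.

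The other loci most like each gene were found by the distance between peak numbers, as log2(peaks + 1), over the 4 lists. The gene names of these loci were not analysed here. The closest to both genes was a plus-strand locus of chromosome 6, from 38505510 to 38519753, with 1, 1, 16 and 12 peaks in the order C2C12 A and B, differentiated A and B (distance 1.22 to Bin1 and 1.08 to Ehbp1l1). Next to Bin1 came a minus-strand locus of chromosome 16, from 57391592 to 57391728, with 2, 0, 8 and 7 peaks (1.48), and a minus-strand stretch of the mitochondrial chromosome, with 2, 2, 18 and 9 (1.76). Next to Ehbp1l1 came minus-strand loci of chromosome 1, from 66972112 to 66983880, with 0, 0, 28 and 12 peaks (1.23), and of chromosome 8, from 11619513 to 11628345, with 0, 0, 15 and 9 (1.28). The median domain of the 4 lists held 2 peaks, and 6 domains outside the windows held more than the 35 of either gene. For Bin1, the 35 peaks and the distances are those of the whole window. At the 10 kb limit that window splits into 2 domains, whereas each of the other loci is a single domain.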

How the data were processed

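HNRNPA2B1 eCLIP libraries of 2 C2C12 and 2 differentiated C2C12 replicates were analysed through their deposited peak lists. Per the study's methods, reads free of adapters and repeats were aligned to mm9 with STAR, PCR duplicates were dropped and peaks were called in each replicate with the encode_branch version of CLIPPER, set to mm9. The STAR version is not given in the sources used here. The lists have 6 columns and no header, and the units were taken from the values and the methods. The authors deposited for each peak the −log10 p of IP against size-matched input (5 to 400) and the log2 fold enrichment over that input. The methods require −log10 p above 8 after Bonferroni correction for a significant peak. The lists go below that, and whether their p is corrected is unknown. The methods take the replicates as biologically independent; the labels do not say so.

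The members, windows and rules were chosen with earlier results of these data known. The text names every region of both windows with a peak in both replicates of a state, and the 3 loci most like each gene. A list of 10 trafficking genes was not analysed, because no mm9 annotation was at hand. The reference is GRCm38, and 75 peaks end beyond its chromosomes. A limit for a count of 0 is 3 peaks of the list. With 2 libraries against 2 the smallest exact permutation p is 0.333, so states were described. Functions were tested on simulated data and against bedtools 2.31.1. Alternatives were stricter score thresholds, merged peaks, other overlap and linking rules and leaving out each replicate. Python 3.11.15, scipy 1.17.1, numpy 2.4.6 and matplotlib 3.10.9 were used.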

Additional observations from a re-analysis of the deposited data

How the results depend on the processing

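The excess of peaks in differentiated C2C12 kept its direction, except for Bin1 with enrichment held to 3 or more on the log2 scale, where no Bin1 peak was left in any list. A −log10 p of 8 is the cut of the study's methods if the deposited values are corrected, and a looser cut if they are not. With −log10 p held to 8 or more, the differences for Bin1 and Ehbp1l1 were 6 and 10.5 peaks (630 and 866 nt). With enrichment held to 3 they were 0 and 1.5 peaks (0 and 63 nt), and after merging touching peaks 10 and 10.5 peaks. Leaving out each replicate gave 14.5 to 16.5 peaks (950 to 1440 nt) for Bin1 and 15.5 to 17.5 peaks (1051 to 1200 nt) for Ehbp1l1. Taking any overlap with the window changed neither gene's peaks or nucleotides.

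Replicate overlap, 66.7% for Bin1 and 91.2% for Ehbp1l1 over both directions, was 33.3% for Bin1 with −log10 p held to 8. It was 0% for Ehbp1l1 with enrichment held to 3, where differentiated replicate A had no peak, and the Bin1 value could not be computed there. Identical ends left 0% for both genes, and a gap of up to 100 nt gave 100% for Ehbp1l1. Regions of both differentiated replicates alone fell from 5 to 1 for Bin1 with −log10 p held to 8. They were 0 for both genes with enrichment held to 3, and 1 for Ehbp1l1 when peaks up to 100 nt apart were merged. Bin1 clusters numbered 2 with linking up to 10 kb and 3 with −log10 p held to 8, and Ehbp1l1 clusters 2 with linking up to 100 nt. Stricter thresholds leave fewer peaks by construction. Where no cause is given, the cause was not tested. No paired analysis was possible because no result carries a test, and the labels do not tie a letter in one state to the same letter in the other. Taken by letter alone, A and then B, the difference was 15 and 16 peaks for Bin1 and 17 and 16 for Ehbp1l1. Read counts were not used here, which leaves the error of each peak unknown.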
